A study of Saccharomyces cerevisiae with 5 samples.

Results

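Array readings of strain barcodes were compared between a mixture of Pool A and Pool B and Pool A labelled against itself. The strains described are those whose 2 barcodes gave readings that agreed in sign and size and whose mean reading differed by at least 1 log2 unit. They numbered 47 of the 5444 strains read, 26 higher and 21 lower on the mixed array. These 47 were chosen by the values of this comparison, so their differences are a description and no test is given for them.

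The strains are diploid budding yeast (Saccharomyces cerevisiae), each heterozygous for the knockout of a single gene, so that each still carries an intact copy of that gene. They were grown on YPD agar, pooled and frozen in glycerol. Per the series design, 94 strains were unequal: they went into Pool B at full strength or after a 1:8 or 1:64 dilution. Pool A received them after a further dilution of 0.33 to 5 log2 units, or not at all. All others were to be equally represented. Every group therefore shares the same strain collection, growth and freezing, and no drug or other treatment is named. On the 3 Pool A self-self arrays both dyes marked Pool A. On the mixed array Cy3 marked Pool A and Cy5 marked Pool B. A Pool B self-self array, with Pool B in both dyes, is given beside the results. There was 1 mixed array, 1 Pool B array and no dye swap in the data used, so the pool and the dye cannot be told apart on the mixed array alone. The number of arrays limits the precision. Nothing in the labels says whether the Pool A arrays came from separate DNA preparations, so their spread may be technical.

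In the yeast deletion collection a gene is replaced by a cassette flanked by short DNA tags, the UPTAG and the DNTAG, which are unique to the strain. The tags are amplified from the DNA of a whole pool with common primers and hybridised to an array, and the signal of a tag follows how many cells of its strain are in the pool. A reading therefore reports the abundance of a strain and says nothing of the activity of the gene that the strain lacks. The pools were made by adding strains in set amounts and not by selection, so the functions named below identify the strains. They are no measure of growth.

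Values are log2 ratios of the channels. The median of the spots with a gene name was subtracted on every array, and a strain's value is the mean of its 2 tags. A difference is the mixed value minus the average over the 3 Pool A arrays. Its standard error (SE) comes from limma, which draws each strain's spread over those 3 arrays toward a value common to all strains. The mixed array was assumed to share that spread. The SE is therefore not the strain's own spread. Over all strains it ran from 0.19 to 0.26, while the standard deviation (SD) of the 3 arrays ran from 0.002 to 0.55. No source gives the direction of the deposited ratio. It was read as Cy5 over Cy3, which makes more Pool B signal positive, and this direction is an assumption that was not tested. The design dilutes every unequal strain further in Pool A. Of the strains with agreeing tags past 2 log2 units, 17 were positive and 2 negative. These signs belong to the strains described and are not independent support for the direction. Tags were said to agree when both had the same sign and the smaller difference was at least 0.5 of the larger. Which tag is the UPTAG is not given, so the tags are called the first and the second.

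By this rule 26 strains (0.478% of 5444) were higher on the mixed array and 21 (0.386%) were lower. Of the 26, 9 (0.165%) were higher by 1 to 2 log2 units, 8 (0.147%) by 2 to 3, 8 (0.147%) by 3 to 5 and 1 (0.0184%) by over 5. Of the 21, 19 lay between 1 and 2, 1 between 2 and 3 and 1 just past 3. Applied to the Pool B self-self array, against the same Pool A mean, the rule found 12 strains higher (0.22%) and 52 lower (0.955%). All 64 of those lay between 1 and 2 log2 units, the highest at 1.82 and the lowest at -1.52. Strains past 2 log2 units with agreeing tags were thus found on the mixed array (17 higher and 2 lower) and numbered 0 on the array where both dyes held Pool B. This contrast depends on the agreement rule. Without it, the mean of both tags was at least 1 higher in 49 of 5444 strains on the Pool B array and 47 on the mixed array. It was at least 1 lower in 118 and 57. The Pool B means then ran from -2.83 to 2.53. That array carries another date in its title than the mixed array, which has the date of the Pool A arrays.

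**Figure D1:**
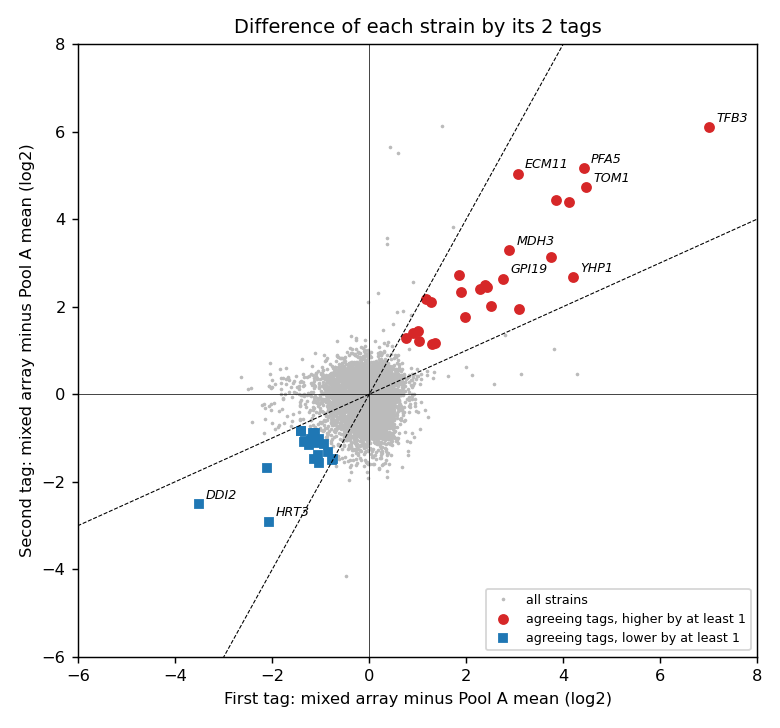
Difference of each of the 5444 strains on the mixed array from the Pool A mean, in log2 units, for the first tag (horizontal axis) and the second tag (vertical axis), with the limits of tag agreement as dashed lines. The 26 higher strains (red circles) run along the diagonal up to TFB3 at 7.01 and 6.09, and the 21 lower strains (blue squares) lie close to the main cloud except for DDI2, HRT3 and MRPS28.

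Agreement between tags was uncommon. Over all strains both tags had the same sign in 2821 (51.8%), and they agreed by the rule in 1151 (21.1%). The shares that unrelated tags would give were not worked out, so these shares are no measure of the tags. Of the 47 strains (0.863%) whose mean was at least 1 higher, 26 had agreeing tags and 21 did not. Of the 57 (1.05%) whose mean was at least 1 lower, 21 agreed and 36 did not. The gap between the tags of a strain had a median of 0.47 log2 units in the 26 higher strains, and 14 of them had a gap of at most 0.5. Over all 5444 strains, most of which differed little, only the sizes of the tags were compared, with their signs left out. These sizes lay a median of 0.24 apart, and at most 0.5 apart in 4349 strains. Tags of opposite sign lie further apart than this, so these values cannot be set beside the 0.47. The second tag gave the larger difference in 17 of the 26, against 3176 of all 5444 strains.

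A single strain passed 5 log2 units. It lacks a copy of TFB3 (YDR460W), which encodes a subunit of TFIIH, the factor that opens promoter DNA for RNA polymerase II and unwinds damaged DNA in nucleotide excision repair. Its ratio was 6.46 on the mixed array, against 0.02, -0.11 and -0.17 on Pool A arrays 1, 2 and 3 and -0.13 on the Pool B array. The mixed array thus stood far from all 4 self-self arrays, which lay close together around 0. For the Pool A arrays this follows from the choice of the strain by its difference. The difference was 6.55 ± 0.19 (SE, 3 Pool A arrays and 1 mixed array), a 93.7-fold change of the channel ratio, with 7.01 in the first tag and 6.09 in the second. It was the largest of all 5444 strains. With quantile normalization it was 4.33, which is below 5.

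The step from 3 to 5 log2 units held 8 strains, of which PFA5, TOM1 and UBX3 lack genes that act on other proteins. PFA5 (YDR459C) encodes a palmitoyltransferase, an enzyme that attaches a fatty acid to cysteines of membrane proteins. Its strain read 4.35 on the mixed array against -0.35, -0.30 and -0.71 on the Pool A arrays, a difference of 4.80 ± 0.20 (SE) with 4.42 and 5.17 in its tags. TOM1 (YDR457W) encodes a large HECT-type ubiquitin ligase. Its strain read 4.48 against 0.03, -0.21 and -0.15, a difference of 4.59 ± 0.19, and its tags (4.47 and 4.72) lay closer together than those of PFA5. UBX3 (YDL091C) encodes a UBX-domain protein that binds the segregase Cdc48, which pulls ubiquitin-marked proteins out of complexes. Its strain read 3.69 against -0.33, -0.39 and -0.66, a difference of 4.14 ± 0.20. In none of these 3 strains did the self-self arrays come near the mixed array, which for the Pool A arrays follows from the choice of strains. Pool B self-self read -0.17, -0.50 and 0.04.

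Regulators and enzymes of metabolism made up another 3 of this step. THI3 (YDL080C) encodes a protein that senses thiamine pyrophosphate and controls the genes of thiamine synthesis. Its strain read 4.21 on the mixed array against 0.13, 0.16 and -0.39 on the Pool A arrays, a difference of 4.25 ± 0.21 (SE). MRK1 (YDL079C), the gene next to it, encodes a kinase of the glycogen synthase kinase family. Its strain read 3.35 against 0.06, -0.03 and -0.27, a difference of 3.43 ± 0.20. MDH3 (YDL078C), next in line, encodes the peroxisomal malate dehydrogenase, which regenerates NAD for fatty acid oxidation. Its strain read 2.78 against -0.06, -0.27 and -0.58, a difference of 3.09 ± 0.21. The smallest difference of a single tag in these 3 neighbouring strains was 2.88, in the first tag of MDH3.

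The remaining 2 strains of this step had the widest gaps between tags among the 26. ECM11 (YDR446W) encodes a meiotic protein of the synaptonemal complex. Its strain read 3.66 on the mixed array against -0.27, -0.21 and -0.67 on the Pool A arrays, a difference of 4.05 ± 0.21 (SE), with 3.06 in the first tag and 5.03 in the second. YHP1 (YDR451C) encodes a homeobox repressor of cell cycle genes. Its strain read 3.13 against -0.23, -0.18 and -0.54, a difference of 3.44 ± 0.20, with 4.21 in the first tag and 2.67 in the second. By its smaller tag YHP1 would belong to the step from 2 to 3, as would MDH3, whereas ECM11 would stay.

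**Figure D2:**
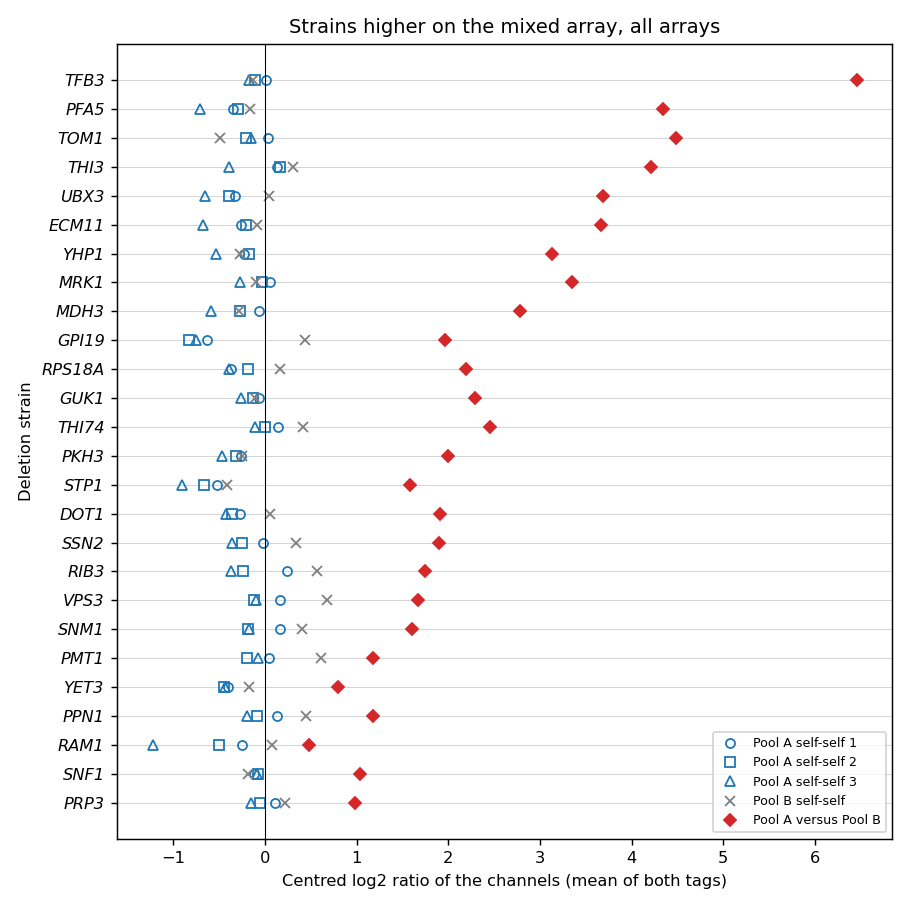
Centred log2 ratio (mean of both tags) on each of the 5 arrays for the 26 strains higher on the mixed array, in order of their difference. The mixed array (red diamonds) lies to the right of every self-self array in each strain, from 0.48 in RAM1 to 6.46 in TFB3, and the Pool A arrays (blue open symbols) lie between -1.23 and 0.24.

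The step from 2 to 3 log2 units held 8 strains, and 3 of them lack regulators of transcription or chromatin. SSN2 (YDR443C) encodes a subunit of the Mediator kinase module, which can hold RNA polymerase II away from promoters. Its strain read 1.90 on the mixed array against -0.02, -0.25 and -0.36 on the Pool A arrays, a difference of 2.11 ± 0.20 (SE). DOT1 (YDR440W) encodes a histone methyltransferase needed for silencing at telomeres. Its strain read 1.91 against -0.28, -0.36 and -0.43, a difference of 2.27 ± 0.19. STP1 (YDR463W) encodes a transcription factor that is cut and released when amino acids are sensed outside the cell and that switches on amino acid permease genes. Its strain read 1.59 against -0.52, -0.66 and -0.91, a difference of 2.28 ± 0.20. That the mixed array stood well above the Pool A arrays in all 3 follows from the choice of strains differing by at least 2.

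GUK1, THI74 and PKH3 had tags that lay close together. GUK1 (YDR454C) encodes guanylate kinase, which makes GDP from GMP. Its strain read 2.29 on the mixed array against -0.07, -0.13 and -0.26 on the Pool A arrays, a difference of 2.45 ± 0.19 (SE) with 2.39 and 2.50 in its tags. THI74 (YDR438W) encodes a mitochondrial membrane protein whose gene is repressed by thiamine. Its strain read 2.45 against 0.14, 0.003 and -0.10, a difference of 2.44 ± 0.19 with 2.42 and 2.46 in its tags. PKH3 (YDR466W) encodes a protein kinase related to the sphingolipid-responsive Pkh kinases. Its strain read 2.00 against -0.26, -0.31 and -0.47, a difference of 2.35 ± 0.19 with 2.28 and 2.41 in its tags. These 3 differences lay within 1 SE of each other.

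RPS18A and GPI19 completed the step. RPS18A (YDR450W) encodes a protein of the small ribosomal subunit and has a paralog, RPS18B, so a strain lacking a copy of it still has other copies of the protein. It read 2.20 on the mixed array against -0.38, -0.19 and -0.40 on the Pool A arrays, a difference of 2.52 ± 0.19 (SE) with 3.08 and 1.95 in its tags. GPI19 (YDR437W) encodes a subunit of the enzyme that starts the synthesis of glycosylphosphatidylinositol anchors. Its strain read 1.96 against -0.63, -0.83 and -0.75, a difference of 2.70 ± 0.19. The Pool B self-self array read 0.43 for GPI19, which is 1.17 above its Pool A mean. As a mean of both tags, only GPI19 of the 26 also lay at least 1 from its Pool A mean on the Pool B array. Single tags did so in other strains. In the first and second tag the Pool B difference was -0.39 and 1.77 in VPS3 and 1.24 and -0.43 in THI74. It was 1.21 and 0.17 in RIB3 and 0.45 and 1.01 in RAM1.

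The step from 1 to 2 log2 units held 9 strains of various functions, with differences from 1.02 to 1.87 and a median of 1.23. RIB3 (YDR487C), a riboflavin synthesis gene, led it. Its strain read 1.75 on the mixed array against 0.24, -0.24 and -0.37 on the Pool A arrays, a difference of 1.87 ± 0.22 (SE). VPS3 (YDR495C) encodes a subunit of the CORVET complex, which tethers endosomes, and SNM1 (YDR478W) a protein of RNase MRP, which cuts ribosomal RNA precursors. They differed by 1.69 ± 0.20 and 1.67 ± 0.20, and their second tags (2.10 and 2.18) were past 2 while their first (1.27 and 1.16) were not.

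Enzymes that modify proteins or polymers followed. PMT1 (YDL095W), a protein O-mannosyltransferase gene of the endoplasmic reticulum, differed by 1.26 ± 0.19 (SE), with 1.18 on the mixed array against 0.04, -0.20 and -0.08. PPN1 (YDR452W) encodes a vacuolar polyphosphatase and differed by 1.22 ± 0.20. RAM1 (YDL090C) encodes a subunit of protein farnesyltransferase, which modifies Ras and the a-factor pheromone. Its strain read 0.48 on the mixed array against -0.25, -0.51 and -1.23, a difference of 1.14 ± 0.25. The SD of its 3 Pool A arrays was 0.51, with replicate 3 well below the others. Without that array RAM1 (0.86) and PRP3 (0.96) did not reach 1.

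The last 3 were YET3, SNF1 and PRP3. YET3 (YDL072C) encodes an endoplasmic reticulum membrane protein and read 0.80 on the mixed array against -0.40, -0.45 and -0.43, a difference of 1.23 ± 0.19 (SE). SNF1 (YDR477W), the AMP-activated kinase that yeast needs to use carbon sources other than glucose, read 1.03 against -0.12, -0.07 and -0.09, a difference of 1.13 ± 0.19. PRP3 (YDR473C), a splicing factor gene, read 0.99 against 0.11, -0.06 and -0.16, a difference of 1.02 ± 0.19. In each of the 9 strains the mixed array was above all 3 Pool A arrays. Over all strains it lay above all 3 in 27.4% and below all 3 in 38.6%, so such a separation by itself is common.

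The Pool B array also read above the Pool A mean in most of the 26 strains (22 of them). The Pool B reading minus the Pool A mean had a median of 0.50 for the 9 strains from 1 to 2, of 0.41 for the 8 from 2 to 3 and of 0.16 for the 8 from 3 to 5, and it was -0.04 for TFB3. Over all strains the median was -0.03. It was 0.69 for RIB3, VPS3 and PMT1 and 0.73 for RAM1. Both differences use the same Pool A arrays, and Pool A replicate 3 was the lowest of the 3 in 19 of the 26 strains (73.1%, against 36.5% of all strains). The part of either in the smaller differences was not tested.

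The limits of the rule ran through groups of similar strains. PRP3 (1.02), SNF1 (1.13) and RAM1 (1.14) were just inside the limit of 1. SEN34 (YAR008W) at 0.93, a tag set of JIP4 (YDR475C) at 0.78 and RPL30 (YGL030W) at 0.74 were just outside. On the limit of agreement, among the higher strains, SNM1, PRP3 and VPS3 were just inside, with the smaller tag at 0.53, 0.59 and 0.60 of the larger. SLD5 (YDR489W), VPS52 (YDR484W) and RPS17B (YDR447C) were just outside, at 0.48, 0.47 and 0.45 of the larger tag, with mean differences of 2.08, 1.34 and 2.77. Below 1, strains with agreeing tags that differed by 0.33 to 1 numbered 262 higher (4.81%) and 337 lower (6.19%) on the mixed array. On the Pool B self-self array they numbered 490 (9.0%) and 373 (6.85%), so agreeing readings of this size were not fewer where both dyes held the same pool.

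All 26 higher strains lacked a gene on chromosome IV, which holds 707 of the 5440 strains whose gene could be placed. So did 20 of the 21 strains whose mean was at least 1 higher but whose tags did not agree. The location is thus not particular to strains with agreeing tags. The 26 lay in 2 groups of neighbouring genes with 448 strains between them. On the left arm, 7 of the 23 strains from PMT1 to YET3 were among the 26, with differences from 1.14 to 4.25. On the right arm, 19 of the 54 strains from GPI19 to VPS3 were, with differences from 1.02 to 6.55. Of the 26, 14 had another of them as the next strain in gene order, in stretches of at most 3: THI3, MRK1 and MDH3 formed one and RPS18A, YHP1 and PPN1 the other. The strains in between were mixed in size. The other 16 strains of the left group had a median of 0.81 (5 of them at 1 or more), and the other 35 of the right group a median of 0.60 (11 at 1 or more and 4 below 0). The remaining 630 strains of the chromosome had a median of -0.04. Of these 4 were at 1 or more, all a few genes past VPS3 and with tags that did not agree: PUF6 (1.80), ITR1 (2.42), a tag set of RPL37B (1.30) and LPP1 (1.31), named after their values were seen.

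**Figure D3:**
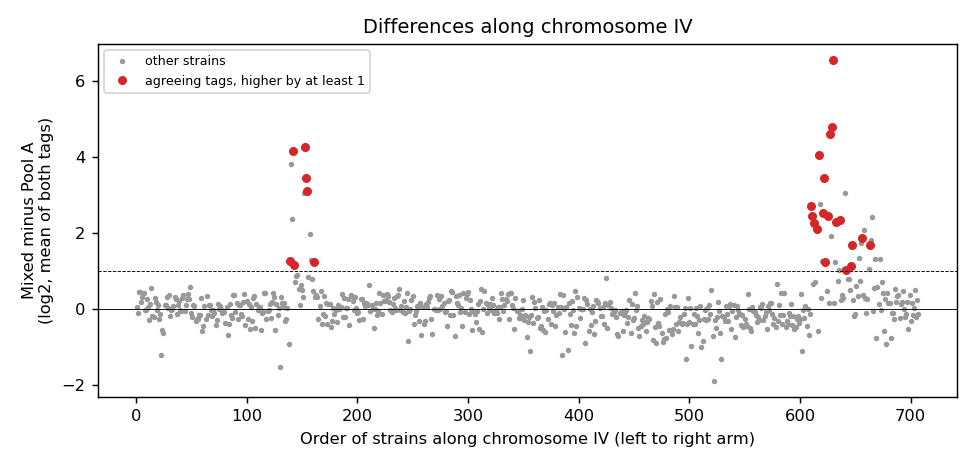
Difference of each strain of chromosome IV (mixed array minus Pool A mean, log2 units, mean of both tags) in the order of the genes from the left to the right arm, with the limit of 1 as a dashed line. The 26 strains with agreeing tags (red) fall in 2 groups, of 7 and 19, among neighbours of mixed size. The highest of these neighbours reached 3.81 in the left group and 3.04 in the right group, above many of the 26.

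The largest steps did not belong to a single function. Of the 26 strains, 19 fell in 14 of 19 function lists and 7 in none. No list held more than 3 of them. Protein kinases of the SNF1, GSK3 and PKH groups held 3 of 20 strains (MRK1, PKH3 and SNF1), with a list median of 0.02 against -0.06 for all strains. Thiamine genes held 2 of 16 (THI3 and THI74, list median 0.12), protein palmitoylation and prenylation 2 of 20 (PFA5 and RAM1, 0.09) and ubiquitin ligases and UBX adaptors 2 of 53 (TOM1 and UBX3, -0.10). Each of these lists was written with the large strains already known, so its count is no evidence for its function.

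The other 10 of the 14 lists held a single strain of the 26 each. Cytosolic ribosomal proteins held 1 of 140 (RPS18A, list median -0.03), ribosome and rRNA maturation 1 of 114 (SNM1, 0.03), splicing 1 of 86 (PRP3, -0.02) and vesicle tethers and SNAREs 1 of 66 (VPS3, -0.01). Chromatin silencing and histone modification held 1 of 54 (DOT1, 0.05), Mediator and SAGA 1 of 40 (SSN2, -0.06) and O-mannosylation 1 of 31 (PMT1, 0.09). Dehydrogenases of the TCA cycle and NADH shuttles held 1 of 30 (MDH3, -0.02), GPI anchor synthesis 1 of 25 (GPI19, -0.13) and TFIIH 1 of 10 (TFB3, -0.24). The TFIIH list thus contained the highest strain of all and still had the lowest median of the 19. None of the 26 was found among mitochondrial ribosomal proteins (73 strains, -0.09), the DNA damage response (68, -0.07), inositol and phospholipid metabolism (36, 0.13), ESCRT and endosomal sorting (25, -0.06) or kinesins and spindle genes (24, -0.10).

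The 21 lower strains were spread over 9 chromosomes, with 3 on chromosome IV and none of those 3 in the groups above. Under the direction taken, the design holds no strain with less signal in Pool B. Without Pool A replicate 1 the rule gave 33 lower strains. DDI2 (YNL335W), a cyanamide hydratase gene induced by DNA damage, was the lowest of all 5444 strains. It read -2.39 on the mixed array against 0.11, 0.78 and 0.98 on the Pool A arrays, a difference of -3.01 ± 0.24 (SE) with -3.52 and -2.51 in its tags. HRT3 (YLR097C), the gene of an F-box protein that selects targets for ubiquitin ligases, read -2.26 against -0.06, 0.45 and 0.32, a difference of -2.49 ± 0.21. MRPS28 (YDR337W), a gene of the small mitochondrial ribosomal subunit, read -1.71 against 0.20, 0.59 and -0.24, a difference of -1.90 ± 0.23. As means of both tags, these 3 stood clear of the Pool A arrays, which follows from their choice by size. They also stood clear of the Pool B array, which read -0.20, -0.24 and 0.26. The tags of MRPS28 lay at unlike levels. Its first tag read -3.20 on the mixed array against a Pool A mean of -1.09, and its second read -0.23 against 1.46.

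In several of the other 18 the Pool A arrays and not the mixed array lay away from 0. TFB1 (YDR311W), which encodes another TFIIH subunit, read 0.17 on the mixed array and 0.05 on the Pool B array, against 1.58, 1.73 and 1.16 on the Pool A arrays, which gave a difference of -1.31 ± 0.21 (SE). A tag set of RPN9 (YDR427W), a proteasome lid gene, read -0.003 on the mixed array against 1.08, 1.23 and 1.05. In 6 of the 21 strains the mixed value lay within 0.5 of 0 (4487 of all 5444), and in 9 the Pool A mean was above 0.5 (570 of all). The Pool B reading was also at least 1 below the Pool A mean in 6 of the 21 (118 of all). By contrast the mixed value lay within 0.5 of 0 in 1 of the 26 higher strains, RAM1. Pool A replicate 2 was the highest of the 3 in 18 of the 21 (85.7%, against 51.5% of all strains).

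The next lower strains were a tag set of YIL092W, a gene with no standard name (-1.31 ± 0.20, SE), KAP114, a nuclear import receptor gene (YGL241W, -1.23 ± 0.19), and SRL4 (YPL033C, -1.22 ± 0.20). SME1 (YOR159C), which encodes a core protein of the spliceosomal particles, differed by -1.20 ± 0.21. PUS5 (YLR165C), a pseudouridine synthase gene of mitochondrial ribosomal RNA, differed by -1.20 ± 0.21. As means of both tags, on the mixed array SME1 read -1.02 and PUS5 -1.33, below all their self-self readings. The tags of SME1 lay at unlike levels. Its first read -2.11 on the mixed array, against a Pool A mean of -0.87 and -0.82 on the Pool B array. Its second read 0.07, against 1.24 and -0.03, so it was not below the Pool B array. RRS1 (YOR294W, -1.13 ± 0.20) acts in assembly of the large ribosomal subunit, and YOR302W (a tag set, -1.13 ± 0.20) encodes the leader peptide upstream of CPA1. The tag set of RPN9 (-1.12 ± 0.19), PIB2 (YGL023C, -1.12 ± 0.21), a regulator of the growth kinase complex TORC1, and YOL107W (-1.11 ± 0.23) completed the 14 furthest from 0. Among the function lists, 6 held 1 lower strain each: mitochondrial ribosomal proteins, TFIIH, ubiquitin ligases and UBX adaptors (HRT3), splicing (SME1), ribosome and rRNA maturation (UTP9) and the DNA damage response (DDI2).

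**Figure D4:**
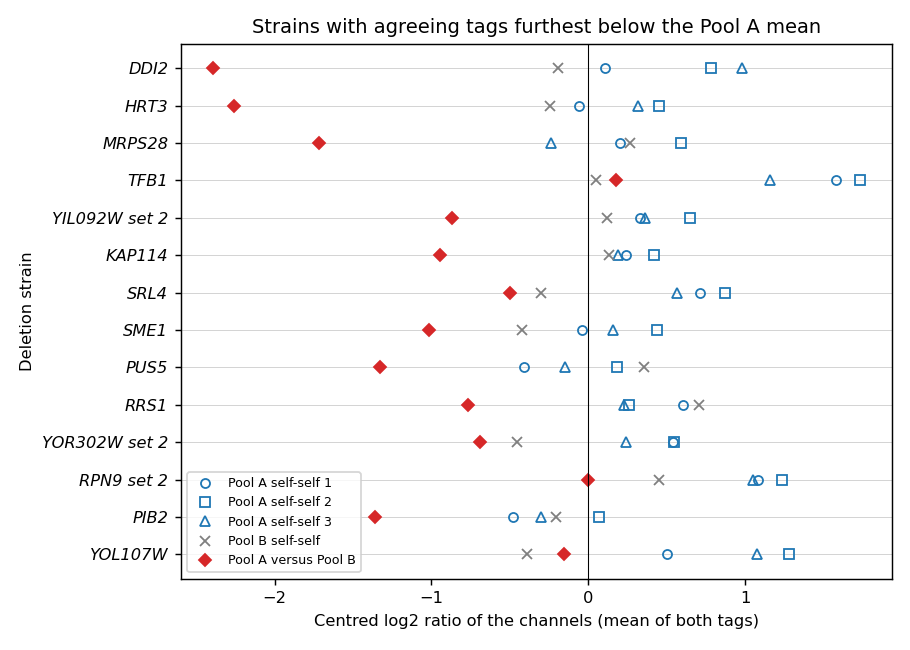
Centred log2 ratio (mean of both tags) on each of the 5 arrays for the 14 strains with agreeing tags furthest below the Pool A mean on the mixed array, the lowest difference at the top. The mixed array (red diamonds) reaches -2.39 in DDI2, while in TFB1, RPN9 and YOL107W it lies near 0 and the Pool A arrays (blue open symbols) lie to the right.

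Repeat spots were available for 6 of the 47 strains, with 6 spots for each tag. In DOT1 the differences ranged from 2.33 to 2.59 over the spots of the first tag and from 1.95 to 2.19 over those of the second. In RPS18A they ranged from 2.90 to 3.45 and from 1.85 to 2.04, so the tags of RPS18A differed by more than their spots did. In SNF1 they ranged from 0.97 to 1.10 and from 1.15 to 1.36, and in PMT1 from 1.26 to 1.48 and from 1.11 to 1.21. VPS3 ranged from 1.18 to 1.45 and from 1.87 to 2.31. In PIB2, the one lower strain with repeat spots, they ranged from -1.43 to -1.04 and from -1.18 to -0.85. The SD over the spots of a tag was 0.04 to 0.21 log2 units. Spots of a tag share an array and a PCR, so this spread is not a replicate error of the strain.

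None of the 26 higher strains had a second tag set, while 3 of the 21 lower ones did. The other tag set of RPN9 differed by 0.39, that of YOR302W by 0.46 and that of YIL092W by -0.12, against -1.12, -1.13 and -1.31 for the sets above. In these 3 genes the lower reading was therefore not shared by the other tag set.

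By limma's test across all 5444 strains, 84 (1.54%) were called higher and 318 (5.84%) lower on the mixed array at an adjusted p under 0.05. Without Pool A replicate 2 the lower calls numbered 132. The same test called 465 (8.54%) higher and 725 (13.3%) lower on the Pool B self-self array. All 47 strains described here were among the calls, which follows from their size, and nothing is read from it.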

How the data were processed

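Per the labels' protocols, tags were amplified from about 50 ng of pooled genomic DNA by 50 PCR cycles in 20 µl, separately for UPTAGs and DNTAGs, with Cy3- or Cy5-labelled primers. The deposited values are log2 ratios per spot for 5 arrays. The base follows from their decimals: as powers of 2, 100% of ratios under 1.5 have 3 decimals. The sources used here name no scanner, background treatment or normalization, and the log2 medians of the deposited columns differ (-0.77 to 0.07 over named spots). Of 22575 spots, 18794 carry 1 gene name from the platform annotation and 3781 none. The same genes recur at an offset of 10971 spot numbers, taken as the 2 tags. Runs of 5 further spots were averaged into their tag. Symbols, chromosomes and gene order came from a RefSeq table of assembly R64, which lacks 4 of the 5325 genes. Differences and SEs came from limma 3.58.1 (R 4.3.3) on all 5 arrays in 3 groups, with Benjamini-Hochberg adjustment. The fit was checked on simulated arrays, all drawn with each strain's Pool A mean and SD. That check could not examine the assumption that the mixed array shares the Pool A spread. Residual spread comes from the Pool A arrays. All strains higher by the rule and the 15 lowest were to be named, with 3 on each side of each limit. Of these, 1 lower strain is not reported here. The members and lists were chosen with earlier results of these data known. Alternatives concerned centring, normalization, the reference arrays, repeat spots and the agreement rule. No filter on dim spots was possible, since ratios alone were used.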

Additional observations from a re-analysis of the deposited data

Results flagged for a closer look

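A signal appeared in spots without a gene name, which no comparison above uses. Of the 1574 pairs of such spots at the same place of both tag blocks, 1 had agreeing readings at least 1 log2 unit higher on the mixed array. It lies between the spots of GUK1 and NHX1 in spot number. Its difference was 4.34, with 3.64 in the first block and 5.04 in the second. It read 4.31 on the mixed array, 0.15, -0.15 and -0.08 on the Pool A arrays and -0.24 on the Pool B array. On the Pool B array, against the same Pool A mean, 10 unnamed pairs with agreeing readings were at least 1 higher, the highest at 1.80, and 15 were at least 1 lower. On the mixed array 1 pair was lower, at -1.35.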

How the results depend on the processing

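Leaving out 1 Pool A array gave 24 to 26 of the 26 higher strains (7 to 9 from 1 to 2 log2 units, 8 to 9 from 2 to 3, 7 to 8 from 3 to 5) and 15 to 33 lower strains, with 33 without replicate 1. With all 4 self-self arrays as the reference, 24 of the 26 and 9 of the 21 remained, among 26 and 10. Quantile normalization gave 30 higher strains, all 26 among them, with 14 from 1 to 2 and 0 over 5, and 11 lower. Without centring, which moved the median of all strains from -0.06 to -0.49, the counts were 19 higher (5 from 2 to 3) and 234 lower. The mixed array alone, with no reference, gave 27 higher, 22 of them shared, with 15 from 1 to 2 and 4 from 2 to 3. The higher strains gained there were PDE1, a tag set of YUR1, ERG6, ERG8 and RTS2, none of them placed on chromosome IV. That setting gave 4 lower, of which 3 (DDI2, HRT3 and IRC25) were shared, and TFB1 turned positive (0.17). Requiring the same sign only gave 46 (22 from 1 to 2) and 54. Requiring the smaller tag to be at least 0.75 of the larger gave 17 (4 from 1 to 2) and 13, and sizing by the smaller tag gave 13 lower. Requiring tags within 1 log2 unit of each other gave 23 and 29. Of the 26 higher strains 22 then remained, with ECM11, RPS18A, YHP1 and SNM1 lost and VPS52 gained. Limma's calls (84 higher, 318 lower) were 58 to 107 and 132 (without replicate 2) to 373 with 1 Pool A array left out, 31 and 196 without centring, 27 and 6 with all 4 self-self arrays, and 31 and 30 with both tags called. The lower calls were 179 with quantile normalization and 166 after scaling the arrays to a common spread. The cause of these changes was not tested. No paired analysis was possible with 1 mixed array. For the 26 higher strains, the 15 lowest and the strains just outside the limits, under these alternatives, 352 differences moved by less than 1 SD of the Pool A arrays, 117 by more and 1 changed sign. Each difference rests on 1 mixed array with no dye swap.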
